A study of Mus musculus with 6 samples.

Results

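The 44 mouse genes described here copy DNA or carry a cell through mitosis: 31 replication genes and 13 mitotic genes, taken by symbol from the 24421 rows of the deposited expression table. All 44 symbols were found. The cells were primary proximal tubular epithelial cells, the reabsorbing cells of the early kidney tubule, grown from mouse kidney in serum-containing medium. Every culture had received erastin2 at 20 µM for 24 h, an erastin analogue that blocks cystine import and can set off ferroptosis, an iron-dependent death by lipid peroxidation. Libraries came as 3 labelled Atg5KO and 3 labelled Atg5F/F (floxed, the control), all with 1 batch label. The labels used here state neither a Cre nor the animal or culture behind a replicate, so every p-value below reflects the scatter among these libraries, part of which may be technical. No untreated cells were analysed here, and a genotype difference that exists before treatment cannot be told apart from one that arises under erastin2.

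Before S phase, the MCM2-7 helicase is loaded onto origins by CDC6 and CDT1, then switched on when CDC45 and the GINS complex join it. Polymerases then copy the DNA on a PCNA clamp that the RFC complex loads, and ribonucleotide reductase and thymidylate synthase supply the nucleotides. Many of these genes are transcribed by E2F factors around the G1/S transition, while cyclin B, CDK1, PLK1, the aurora kinases and the spindle checkpoint genes peak later, in G2 and M, many through CHR promoter elements bound by the DREAM and MuvB complexes. Proximal tubule cells of a healthy kidney rarely divide, and re-enter the cycle after injury and in culture.

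Both classes were examined for the short DNA words of these factors before the start of each gene. RefSeq promoter windows on GRCm38.p6 (250 bases before to 50 after the start) were matched by symbol for 36 of the 44 members, and searched on both strands for 4 E2F words (TTTCCCGC, TTTGGCGC, TTTGCCGC and TTTCGCGC), for the CHR word TTTGAA, and for CCAAT, the word of the factor NF-Y. Below are the 160 bases before the RefSeq start of 2 replication and 2 mitotic members, shown because each holds the words typical of its class and chosen after the words had been located. They run 5′ to 3′ on the gene's own strand. Capitals mark the words, and a word on the other strand appears as its reverse complement (ATTGG for CCAAT).
Mcm5 chr8:75109349-75109508 (plus strand): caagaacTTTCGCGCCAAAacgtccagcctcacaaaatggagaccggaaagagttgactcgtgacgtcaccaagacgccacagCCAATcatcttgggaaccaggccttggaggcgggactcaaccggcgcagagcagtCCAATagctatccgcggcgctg
Mcm6 chr1:128359706-128359865 (minus strand): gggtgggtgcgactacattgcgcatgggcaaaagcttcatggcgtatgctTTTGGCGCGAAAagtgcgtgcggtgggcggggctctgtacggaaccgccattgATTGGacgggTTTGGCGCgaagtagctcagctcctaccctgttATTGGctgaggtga
Cdk1 chr10:69352913-69353072 (minus strand): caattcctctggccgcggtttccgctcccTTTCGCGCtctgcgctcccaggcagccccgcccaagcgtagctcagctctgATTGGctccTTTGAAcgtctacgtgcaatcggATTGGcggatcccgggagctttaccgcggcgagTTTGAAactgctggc
Cdc20 chr4:118437344-118437503 (minus strand): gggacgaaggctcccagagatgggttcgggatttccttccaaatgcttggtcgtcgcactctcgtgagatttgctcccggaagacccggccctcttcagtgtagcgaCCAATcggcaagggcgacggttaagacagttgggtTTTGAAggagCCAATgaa

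In Mcm5 an E2F word began 153 bases before the start, and a second one on the opposite strand overlapped it, which makes the longer block of capitals. Mcm6 held the same kind of overlapping pair, beginning 110 bases before the start, and a further E2F word 47 bases before it. Cdk1 carried CHR words 71 and 15 bases before the start, and was the 1 mitotic member with an E2F word, at 131 bases. Cdc20 had its CHR word 18 bases before the start, between CCAAT words at 53 and 8 bases.

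E2F words stood in 12 of 27 replication windows (44.4%; some genes have more than 1 window), in 1 of 11 mitotic windows (9.09%) and in 2.27% of all 32851 windows of the table. The CHR word had the other distribution, in 8 of 11 mitotic windows (72.7%), 5 of 27 replication windows (18.5%) and 17.9% of all windows. CCAAT was found in 10 of 11 mitotic windows (90.9%), 17 of 27 replication windows (63.0%) and 37.4% of all windows. A match is a run of letters and not a shown binding site. Of the 12 replication genes with an E2F word, Mcm5, Mcm6, Mcm7 and Rfc3 were called higher in Atg5KO by the main test below and Pold1 lower. Cdk2 was called higher on reads, and Mcm3, Gins3, Cdt1, Cdc6, Pola1 and E2f2 were called by neither fit. Over all tested genes the main test called 21.3% higher and 17.9% lower. Rrm1 and Rfc4, whose windows held no E2F word, were also called higher by it, as were Mcm4, Gins2 and Gins4, which had no window. A link between the words and the calls was not tested.

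**Figure D1:**
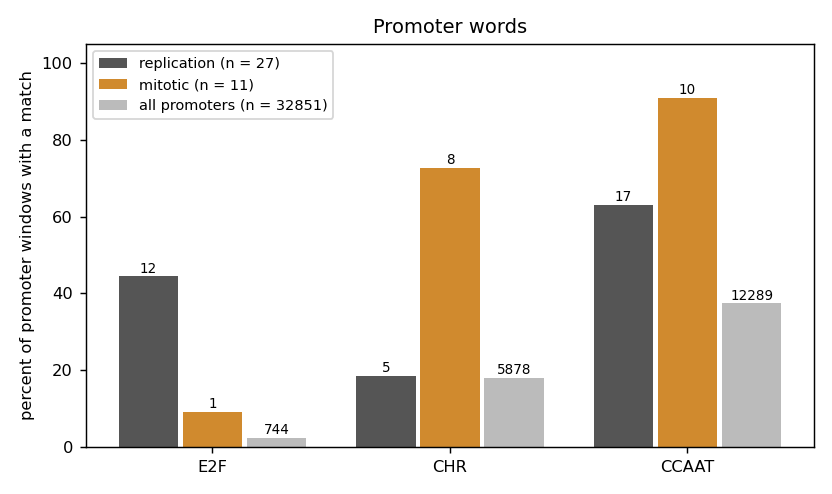
Share of RefSeq promoter windows (percent, y axis) that hold an E2F, CHR or CCAAT word, for replication members, mitotic members and all windows of the table. E2F words reach 44.4% in the replication members against 2.27% of all windows, and the CHR word 72.7% in the mitotic members against 17.9% of all windows.

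The deposited values were FPKM, that is, fragments counted per kilobase of transcript and normalised for sequencing depth. Their steps gave back whole reads for all 18296 genes above 0, with implied totals of 16922491 to 19724355 reads in Atg5KO and 15528454 to 30004933 reads in Atg5F/F libraries. Atg5 itself, a part of the machinery that attaches LC3 to the autophagosome membrane, stood at 13.3, 11.5 and 12.7 FPKM in the Atg5KO-labelled libraries and at 8.76, 8.95 and 7.94 FPKM in the Atg5F/F-labelled libraries. It was not lower under the knockout label (log2 fold change 0.50 with SE 0.07, adjusted p = 0.000553 in limma). A value over the whole gene does not check the loss of an exon, and "Atg5KO" below means the libraries labelled so. Calls are those of limma on log2(FPKM + 1) at an adjusted p under 0.05 among the 11559 genes that reached 1 FPKM in at least 3 libraries. A fold change on this scale understates the change of genes near or below 1 FPKM.

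By level, the medians of the 2 classes lay far apart and their ranges overlapped. Over the 6 libraries the mean level of a replication gene had a median of 2.92 FPKM and ran from 0.0564 FPKM for E2f8 to 30.3 FPKM for Pcna, the sliding clamp. That of a mitotic gene had a median of 0.396 FPKM and a maximum of 1.78 FPKM, for Cdc20, an activator of the anaphase-promoting complex. The filter was passed by 24 of 31 replication genes but by only 2 of 13 mitotic genes, Aurka and Cdc20. The other 18 members were examined on recovered reads (limma-voom on the 15107 genes with at least 10 reads in all), a fit added after the data had been seen, which holds all 44 members.

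**Figure D2:**
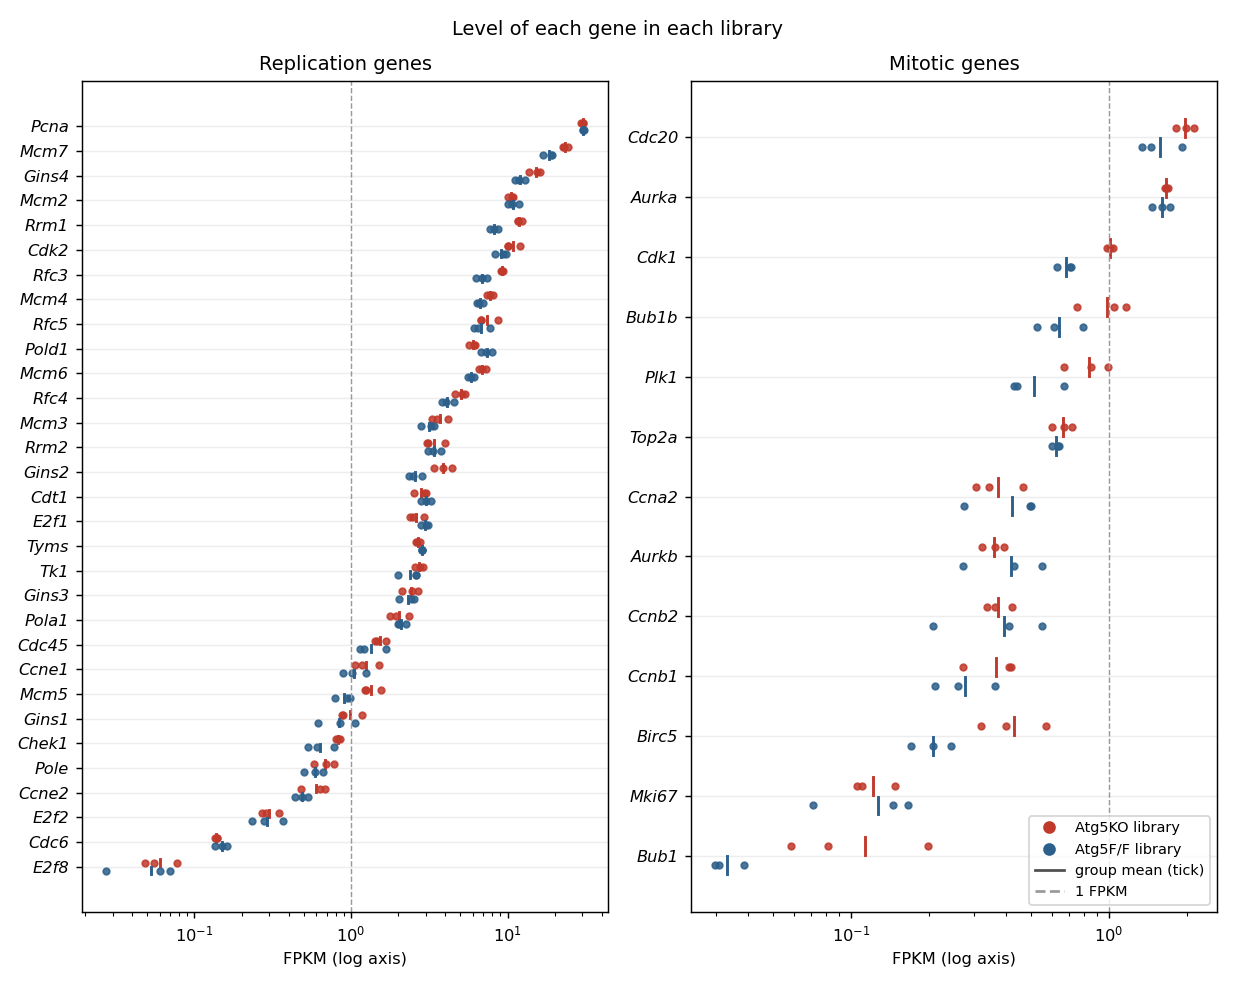
FPKM of the 44 members in each library on a log10 axis, Atg5KO points and Atg5F/F points side by side for each gene, with the 1 FPKM filter drawn. Most replication genes lie above the line, and 11 of 13 mitotic genes have mean levels below it.

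Between genotypes, 9 of the 24 tested replication genes were higher in Atg5KO, where 21.3% of all tested genes were, and 1 was lower, where 17.9% of all were. Among the 9 is Mcm5, which passed the filter through the Atg5KO libraries alone. Without Atg5F/F replicate 3 the higher count was 5, and without Atg5KO replicate 1 the lower count was 0. Calls in either direction covered 39.2% of all tested genes. The increases were small, from 0.19 to 0.49 on the log2 scale, and sat in the helicase, GINS, clamp loader and ribonucleotide reductase. The tested replication genes had a median log2 fold change of 0.14, beside 0.02 over all tested genes. On reads, with all 31 replication genes in the fit, 9 were again called higher and 1 lower, against 20.7% and 16.1% of all 15107 genes, and 8 of the higher ones and the lower one were called by both fits. The summed level of proximal tubule markers also differed between genotypes (137 to 151 FPKM in Atg5KO, 241 to 264 FPKM in Atg5F/F libraries). That sum follows Ggt1 in large part, and the part of these markers in the results was not tested. RNA was taken from whole cultures, so more cells in a phase of the cycle and more RNA per cell cannot be told apart.

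**Figure D3:**
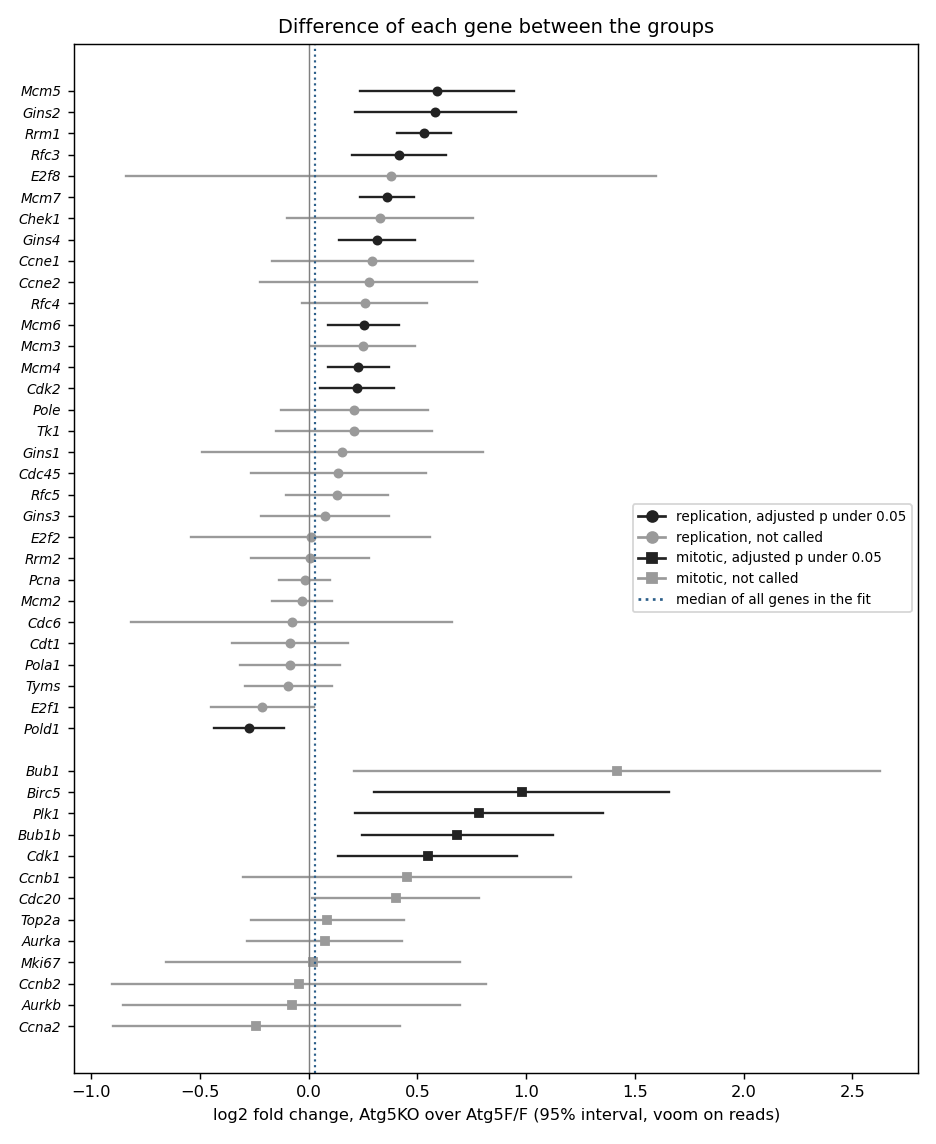
Fold change (log2, Atg5KO relative to Atg5F/F) of the 44 members with 95% intervals, all from the fit on reads, replication genes above and mitotic genes below, each sorted by size. The called replication genes (black) run from Mcm5 at 0.59 down to Pold1 at -0.27, and the called mitotic genes from Birc5 at 0.98 to Cdk1 at 0.55.

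Of the 6 helicase subunits, 4 were higher in Atg5KO, where 21.3% of all tested genes were, and 2 were not called. The 4 include Mcm5, which passed the filter through the Atg5KO libraries alone. Mcm7 (chromosome 5, 138164583 to 138172422, GRCm38, GENCODE vM21) measured 22.5, 24.4 and 23.1 FPKM in Atg5KO and 16.9, 19.1 and 19.0 FPKM in Atg5F/F libraries. Every Atg5KO value lay above every Atg5F/F value (log2 fold change 0.33 with SE 0.06, adjusted p = 0.00201 in limma). Mcm6 (chromosome 1, 128331590 to 128359664) had 6.90, 7.23 and 6.60 FPKM in Atg5KO against 5.57, 6.11 and 5.87 FPKM in Atg5F/F libraries (a log2 fold change of 0.21 with SE 0.06, adjusted p = 0.0212 in limma). Mcm4 (chromosome 16, 15623897 to 15637400) had 7.71, 7.43 and 8.05 FPKM in Atg5KO against 6.38, 6.98 and 6.59 FPKM in Atg5F/F libraries (a log2 fold change of 0.19 with SE 0.06, adjusted p = 0.0256 in limma). Neither gene's groups overlapped.

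Mcm5 (chromosome 8, 75109569 to 75128439), the subunit that closes the helicase ring against MCM2, was the scarcest of the 6. It reached 1.24, 1.56 and 1.24 FPKM in Atg5KO and 0.794, 0.992 and 0.937 FPKM in Atg5F/F libraries, so that it passed the filter through the Atg5KO libraries alone and could only have come out higher. Its log2 fold change was 0.30 on the FPKM scale (SE 0.10, limma adjusted p = 0.0384) and 0.59 on reads (SE 0.17, limma-voom adjusted p = 0.00898), a ratio of mean FPKM of 1.48. Mcm3 and Mcm2 were not called. Mcm3 measured 4.16, 3.56 and 3.31 FPKM in Atg5KO and 2.81, 3.26 and 3.40 FPKM in Atg5F/F, and Mcm2 10.1, 10.9 and 10.7 FPKM in Atg5KO against 10.7, 11.9 and 10.1 FPKM in Atg5F/F, both with overlapping groups (log2 fold changes 0.17 and -0.04). The 6 subunits together took 152, 158 and 153 RPM (reads scaled to library total) in Atg5KO against 126, 141 and 133 in Atg5F/F libraries.

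The calls of Mcm4, Mcm5 and Mcm6 depended on single libraries. Leaving out single libraries took the adjusted p of Mcm4 to between 0.0257 and 0.0814 (past 0.05 without Atg5F/F replicates 1 or 3 or Atg5KO replicates 1 or 3), that of Mcm5 to between 0.0505 and 0.117 (past it without each of the 6 in turn), and that of Mcm6 to between 0.0260 and 0.0678 (past it without Atg5F/F replicates 1 or 3 or Atg5KO replicates 1 or 2), in limma. Longer genes read relatively lower in Atg5F/F libraries (Spearman correlation with gene length across genes, -0.228 to -0.161) than in Atg5KO libraries (0.04 to 0.344), and removing this trend took Mcm4 to an adjusted p of 0.0537 and Mcm5 to 0.0612, as quantile normalization did to 0.0528 and 0.0598. Mcm4 also missed the threshold with no filter (limma adjusted p = 0.0504). Mcm7 stayed called under every alternative run.

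Among the genes that complete the active helicase, Gins2 and Gins4 were higher in Atg5KO. Gins2 (chromosome 8, 120578633 to 120589304) measured 3.86, 4.44 and 3.38 FPKM in Atg5KO and 2.50, 2.36 and 2.85 FPKM in Atg5F/F libraries (a log2 fold change of 0.45 with SE 0.09, adjusted p = 0.00594 in limma), the largest ratio of mean FPKM among the called replication genes, 1.52. The strand setting of the counting is not given. In GENCODE vM21, 67.3% of the 4097 exon bases of Gins2 also lie in exons of Gse1 on the other strand. The deposited values imply a length of only 1038 bases for Gins2, so other exons than those of vM21 were counted. Its reads may be shared, but the overlapping part of the counted exons is not known. Mcm7 (7.25% of exon bases, with Ap4m1) and Plk1 (7.09%, with Gm44985) have smaller overlaps of this kind in vM21. Gins4 (chromosome 8, 23226616 to 23237659) had 13.8, 16.1 and 15.4 FPKM in Atg5KO and 11.9, 11.1 and 13.0 FPKM in Atg5F/F libraries (a log2 fold change of 0.31 with SE 0.07, adjusted p = 0.00883 in limma). The groups of both genes were apart, and both calls held under every alternative run.

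Their partners gave no call. Gins3, the third tested subunit, had 2.67, 2.13 and 2.45 FPKM in Atg5KO and 2.40, 2.54 and 2.02 FPKM in Atg5F/F, and Gins1 lay under the filter with 18 to 23 reads a library in Atg5KO and 11 to 37 in Atg5F/F. Cdc45, the factor that ties the helicase to GINS, had 1.42, 1.68 and 1.48 FPKM in Atg5KO against 1.68, 1.14 and 1.21 FPKM in Atg5F/F libraries (a log2 fold change of 0.11, limma adjusted p = 0.427). Neither loader was called. Cdt1 had 3.01, 2.54 and 2.91 FPKM in Atg5KO against 2.81, 3.03 and 3.23 FPKM in Atg5F/F, and Cdc6 11 to 13 reads a library in Atg5KO against 11 to 19 in Atg5F/F. For Cdc6 the 95% interval of the log2 fold change, -0.82 to 0.66, leaves large changes undetectable at this depth.

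Of the nucleotide genes, the large subunit of ribonucleotide reductase was called and the small subunit was not, and the difference between them was not tested. Rrm1 (chromosome 7, 102441695 to 102469771), the large catalytic subunit, measured 12.3, 11.6 and 11.6 FPKM in Atg5KO and 8.17, 7.72 and 8.69 FPKM in Atg5F/F libraries. The groups were far apart and the change was the largest of any called replication gene on this scale (log2 fold change 0.49 with SE 0.06, adjusted p = 0.000242 in limma), called under every alternative run. Rrm2, the small subunit whose level follows S phase, had 3.05, 3.12 and 3.98 FPKM in Atg5KO against 3.10, 3.78 and 3.35 FPKM in Atg5F/F libraries, with overlapping groups (log2 fold change -0.01, 95% interval -0.24 to 0.21).

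Tyms and Tk1, which make thymidylate by the de novo and the salvage route, were not called. Tyms had 2.61, 2.75 and 2.63 FPKM in Atg5KO and 2.85, 2.82 and 2.82 FPKM in Atg5F/F libraries. All 3 Atg5KO values were below all Atg5F/F values, by a margin within the spread that limma assigns to genes of this level (log2 fold change -0.07, SE 0.06, adjusted p = 0.439). Tk1 had 2.89, 2.55 and 2.77 FPKM in Atg5KO and 2.58, 2.59 and 2.00 FPKM in Atg5F/F, overlapping groups.

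At the fork, 2 clamp loader subunits were higher, a polymerase subunit was lower, and the clamp itself was not called. Rfc3 (chromosome 5, 151642756 to 151651242) had 9.14, 9.14 and 9.32 FPKM in Atg5KO against 7.41, 6.89 and 6.27 FPKM in Atg5F/F libraries, with a clear gap between groups (log2 fold change 0.38 with SE 0.06, adjusted p = 0.00166 in limma), and was called under every alternative run. Rfc4 (chromosome 16, 23113943 to 23127737) had 4.59, 5.35 and 5.10 FPKM in Atg5KO against 4.55, 4.03 and 3.79 FPKM in Atg5F/F libraries, groups that barely missed each other (log2 fold change 0.23 with SE 0.08, adjusted p = 0.0433 in limma). Rfc4 was not called on reads (limma-voom adjusted p = 0.156), with a replicate block (0.0723), with median-ratio scaling (0.0568), quantile normalization (0.0669) or no filter (0.0992), or without Atg5F/F replicate 2 or 3 or Atg5KO replicate 2 or 3 (0.101 to 0.148). It also shares 12.7% of its exon bases in GENCODE vM21 with Eif4a2 on the other strand. Rfc5 overlapped between groups, at 6.80, 8.64 and 6.78 FPKM in Atg5KO and 6.11, 6.44 and 7.74 FPKM in Atg5F/F.

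Pold1 (chromosome 7, 44532746 to 44548849), the catalytic subunit of the lagging-strand polymerase delta, was the 1 replication gene called lower. It measured 5.70, 6.23 and 6.06 FPKM in Atg5KO and 6.79, 7.96 and 7.27 FPKM in Atg5F/F libraries, without overlap (log2 fold change -0.25 with SE 0.07, adjusted p = 0.0161 in limma). Without Atg5KO replicate 1 the adjusted p was 0.0563, and under each other alternative the call held. Pcna, the most abundant member, stood at 30.5, 30.3 and 29.4 FPKM in Atg5KO and 30.9, 30.3 and 30.1 FPKM in Atg5F/F libraries. Its log2 fold change of -0.02 had a 95% interval of -0.10 to 0.07, narrower than that of any other tested member, which leaves out the changes of Mcm7, Rfc3 and Rrm1. Pola1, the polymerase that works with primase, had 1.76, 2.34 and 1.92 FPKM in Atg5KO against 2.24, 2.02 and 1.99 FPKM in Atg5F/F. Pole, the leading-strand polymerase, had 0.697, 0.779 and 0.580 FPKM in Atg5KO against 0.664, 0.587 and 0.503 FPKM in Atg5F/F. Both overlapped between groups and were not called (log2 fold changes -0.04 on FPKM and 0.21 on reads).

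No G1/S regulator among the members was called on FPKM as reported. Cdk2, the kinase that works with cyclins E and A, was closest, with 12.1, 10.1 and 10.1 FPKM in Atg5KO and 9.76, 8.26 and 9.35 FPKM in Atg5F/F libraries. Its groups did not overlap, and it missed the threshold on FPKM (log2 fold change 0.21 with SE 0.08, adjusted p = 0.0636 in limma) and passed it on reads (limma-voom adjusted p = 0.0383) and on FPKM with a replicate block (limma adjusted p = 0.0233). Ccne1, a cyclin E gene, had 1.06, 1.18 and 1.498 FPKM in Atg5KO against 0.886, 1.25 and 1.01 FPKM in Atg5F/F, which overlapped, with no call. E2f1, an activator E2F, had 2.49, 2.94 and 2.37 FPKM in Atg5KO against 3.03, 2.79 and 3.11 FPKM in Atg5F/F libraries, with a log2 fold change of -0.15 that was opposite in sign to those of the called helicase genes and was itself not called (limma adjusted p = 0.189).

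Ccne2, E2f2, E2f8 and Chek1 lay under the filter. Chek1, the checkpoint kinase of stalled forks, had 55, 46 and 50 reads in Atg5KO against 79, 28 and 46 reads in Atg5F/F libraries, which after scaling left its groups apart (0.821, 0.800 and 0.846 FPKM in Atg5KO against 0.775, 0.531 and 0.606 FPKM in Atg5F/F), with no call (limma-voom adjusted p = 0.231). Ccne2, the other cyclin E gene, had 0.630, 0.477 and 0.678 FPKM in Atg5KO against 0.487, 0.440 and 0.528 FPKM in Atg5F/F, overlapping groups. E2f2, an activator E2F, had 23 to 34 reads a library in Atg5KO against 18 to 55 in Atg5F/F. E2f8, a repressor E2F, gave 3 to 5 reads a library in both groups. None of the 7 replication genes under the filter was called by limma-voom, and none had an unadjusted p under 0.05.

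The mitotic genes were rare transcripts in both groups. Limma on FPKM called neither of the 2 it tested, and neither had an unadjusted p under 0.05. Aurka, the spindle pole kinase, had 1.69, 1.65 and 1.66 FPKM in Atg5KO against 1.603, 1.73 and 1.47 FPKM in Atg5F/F, and Cdc20 1.99, 1.82 and 2.13 FPKM in Atg5KO against 1.35, 1.91 and 1.46 FPKM in Atg5F/F (log2 fold changes 0.04 and 0.22, adjusted p = 0.740 and 0.119). Cdc20 was called without Atg5F/F replicate 2 (limma adjusted p = 0.0348). On reads, limma-voom called 4 of the 13 higher in Atg5KO and 0 lower, beside 20.7% and 16.1% of all genes in that fit (0 lower also at an unadjusted p under 0.05). These 4 were Birc5, Plk1, Bub1b and Cdk1.

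Birc5 (chromosome 11, 117849251 to 117855743), survivin, a subunit of the chromosomal passenger complex, had 27, 33 and 19 reads in Atg5KO libraries and 25, 11 and 13 reads in Atg5F/F libraries. Scaled, these were 0.401, 0.571 and 0.320 FPKM in Atg5KO against 0.244, 0.207 and 0.170 FPKM in Atg5F/F, without overlap. Its log2 fold change on reads was 0.98 (SE 0.33, limma-voom adjusted p = 0.0222), the largest of the called members. The call was lost without Atg5F/F replicate 3 (adjusted p = 0.0938) or Atg5KO replicate 2 (adjusted p = 0.102).

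Bub1b (chromosome 2, 118598211 to 118641591), the spindle checkpoint protein BUBR1, had 84, 65 and 48 reads in Atg5KO and 58, 45 and 50 reads in Atg5F/F libraries, or 1.16, 1.05 and 0.752 FPKM in Atg5KO against 0.527, 0.790 and 0.610 FPKM in Atg5F/F. The lowest Atg5KO value lay within the Atg5F/F range (log2 fold change 0.68, SE 0.21, limma-voom adjusted p = 0.0140). The call was lost without Atg5F/F replicate 1 (adjusted p = 0.106) or Atg5KO replicate 1 (0.0911). Bub1, its partner kinase at the kinetochore, had 5, 6 and 15 reads in Atg5KO and 5, 2 and 3 reads in Atg5F/F libraries. Its log2 fold change of 1.42 had a 95% interval of 0.21 to 2.63 and was not called (limma-voom adjusted p = 0.0611). It was called with a replicate block (0.0382) and without Atg5KO replicate 1 (0.0279), whereas without Atg5KO replicate 3 its adjusted p was 0.266.

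Cdk1 (chromosome 10, 69335146 to 69352938), the kinase that drives entry into mitosis, had 57, 50 and 49 reads in Atg5KO and 61, 28 and 45 reads in Atg5F/F libraries. After scaling, its values of 1.01, 1.03 and 0.985 FPKM in Atg5KO were close together and all above the 0.711, 0.631 and 0.705 FPKM of Atg5F/F (log2 fold change 0.55, SE 0.20, limma-voom adjusted p = 0.0343). Leaving out any 1 of the 6 libraries ended this call (adjusted p = 0.0592 to 0.0771), as did quantile normalization (0.0603). Plk1 (chromosome 7, 122159439 to 122169873), polo-like kinase 1, had 37, 25 and 38 reads in Atg5KO and 29, 23 and 21 reads in Atg5F/F libraries, or 0.852, 0.671 and 0.991 FPKM in Atg5KO against 0.439, 0.672 and 0.427 FPKM in Atg5F/F. The groups touched, at Atg5KO replicate 2 and Atg5F/F replicate 2 (log2 fold change 0.78, SE 0.27, limma-voom adjusted p = 0.0296). Its call was lost with quantile normalization (0.0520) and without Atg5F/F replicate 1 or 3 or Atg5KO replicate 1 or 3 (0.0751 to 0.123).

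The proliferation markers and the mitotic cyclins gave no call. Mki67, the Ki-67 gene, had 22, 18 and 26 reads in Atg5KO and 44, 26 and 16 reads in Atg5F/F libraries, or 0.111, 0.106 and 0.148 FPKM in Atg5KO against 0.146, 0.166 and 0.0711 FPKM in Atg5F/F. Its groups overlapped fully (log2 fold change 0.02 on reads, 95% interval -0.66 to 0.70). Top2a, topoisomerase II alpha, which untangles sister chromatids, had 0.671, 0.6003 and 0.716 FPKM in Atg5KO and 0.632, 0.642 and 0.601 FPKM in Atg5F/F, also with overlap (log2 fold change 0.09 on reads, 95% interval -0.27 to 0.44). The interval of Mki67 leaves a change of the size measured for Cdk1 within reach.

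Cyclins A2, B1 and B2 gave 5 to 42 reads a library. Ccnb1 had a log2 fold change of 0.45 on reads (95% interval -0.30 to 1.21), Ccna2 of -0.24 (-0.90 to 0.42) and Ccnb2 of -0.04 (-0.90 to 0.81), so that the cyclin partners of CDK1 showed no detectable change at this depth. Aurkb, the kinase of the passenger complex that also holds survivin, had 14, 13 and 11 reads in Atg5KO and 16, 13 and 24 reads in Atg5F/F (log2 fold change -0.08 on reads, 95% interval -0.85 to 0.70).

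Summed over all 31 replication genes, the level was 409, 420 and 407 RPM in Atg5KO libraries and 361, 370 and 368 in Atg5F/F libraries, 412 ± 7.19 in Atg5KO against 366 ± 4.46 in Atg5F/F (SD, n = 3 each). For the 13 mitotic genes the sums were 25.4, 24.9 and 24.7 RPM in Atg5KO and 19.4, 21.6 and 19.1 in Atg5F/F libraries, 24.98 ± 0.352 in Atg5KO against 20.1 ± 1.39 in Atg5F/F (SD, n = 3 each). Both sums were separate between groups. They are descriptions weighted by the abundant and long members. Gene by gene, groups did not overlap for 11 replication genes with Atg5KO higher and 2 with Atg5KO lower, and for 3 mitotic genes with Atg5KO higher (Cdk1, Bub1 and Birc5) and 0 with it lower. For Bub1 the gap rests on 5, 6 and 15 reads in Atg5KO against 5, 2 and 3 reads in Atg5F/F libraries. Over all genes above 0 the groups were apart with Atg5KO higher for 22.0% and with Atg5KO lower for 17.2%, 39.3% in all, and over the 11559 tested genes in either direction for 51.9%.

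In the authors' deposited table, at an FDR under 0.05, 9 replication genes were higher and 1 lower, and 4 mitotic genes were higher, beside 10.6% higher and 11.4% lower of all 24421 rows. Only 18296 genes were above 0 in any library, all 44 members among them. The rows at 0 throughout cannot be called, so the shares over genes above 0 would be larger. The replication calls of the deposited table were those of the fit on reads: Mcm4, Mcm5, Mcm6, Mcm7, Gins2, Gins4, Rrm1, Rfc3 and Cdk2 higher and Pold1 lower. The mitotic calls of the authors' deposited table were Plk1, Bub1, Bub1b and Birc5, with Bub1 (FDR 0.0449) in place of Cdk1 (FDR 0.0533).

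Among 177 other cell cycle genes, in 10 lists, 117 were tested, and 26 were higher and 5 lower in Atg5KO, a share close to that of all tested genes for increases and below it for decreases (median log2 fold change 0.07). Of the genes around the polymerases and the fork, 7 of 23 tested were higher and 2 lower. The higher ones included Prim1, the catalytic primase subunit, with 4.40, 5.09 and 4.99 FPKM in Atg5KO and 3.65, 3.11 and 3.39 FPKM in Atg5F/F libraries (a log2 fold change of 0.41, limma adjusted p = 0.00323), and Rpa2, a subunit of the single-strand binding protein (log2 fold change 0.35, adjusted p = 0.0110). Dut, which removes dUTP from the nucleotide pool, was lower, at 9.24, 9.08 and 7.89 FPKM in Atg5KO against 11.5, 10.4 and 12.0 FPKM in Atg5F/F (log2 fold change -0.34, limma adjusted p = 0.00621). Of the origin and firing genes 2 of 12 tested were higher, Orc2 and Topbp1, and 0 were lower (0 at an unadjusted p under 0.05, and 0 on reads).

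The counts of the mitotic lists outside the members are to be read beside the 21.3% of all tested genes called higher and 17.9% called lower on FPKM. In the kinetochore and spindle checkpoint list 3 of 12 tested were higher and 0 lower, led by Spc25, a subunit of the NDC80 complex, at 5.38, 4.93 and 5.73 FPKM in Atg5KO and 3.50, 3.21 and 3.35 FPKM in Atg5F/F libraries (a log2 fold change of 0.54, limma adjusted p = 0.000430). In the spindle motor and cytokinesis list 4 of 10 were higher and 0 lower by limma on FPKM, though 1, Tpx2, was lower on reads. These 4 were Ckap2, Nek2, Kifc1 and Anln. Nek2, like Mcm5, passed the filter through the Atg5KO libraries alone (1.41, 1.46 and 1.29 FPKM in Atg5KO, 0.824, 0.846 and 0.854 FPKM in Atg5F/F) and could only have come out higher. Ckap2, a spindle microtubule protein, had 9.79, 9.25 and 10.2 FPKM in Atg5KO against 7.46, 6.46 and 7.27 FPKM in Atg5F/F (log2 fold change 0.41, limma adjusted p = 0.00122). Of the condensin and cohesin genes 4 of 12 were higher (Smc2, Smc3, Ncapd2 and Ncapd3) and 0 lower, and of the anaphase-promoting complex genes 2 of 12 were higher (Cdc23 and Anapc4) and 0 lower. At an unadjusted p under 0.05, limma on FPKM gave 0 lower genes in the kinetochore, condensin and anaphase lists and 1 in the spindle list. The homologous recombination and checkpoint list gave 0 calls among 9 tested by limma on FPKM, 0 of them at an unadjusted p under 0.05, and 3 higher among 21 on reads, where 20.7% of all genes were higher.

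**Figure D4:**
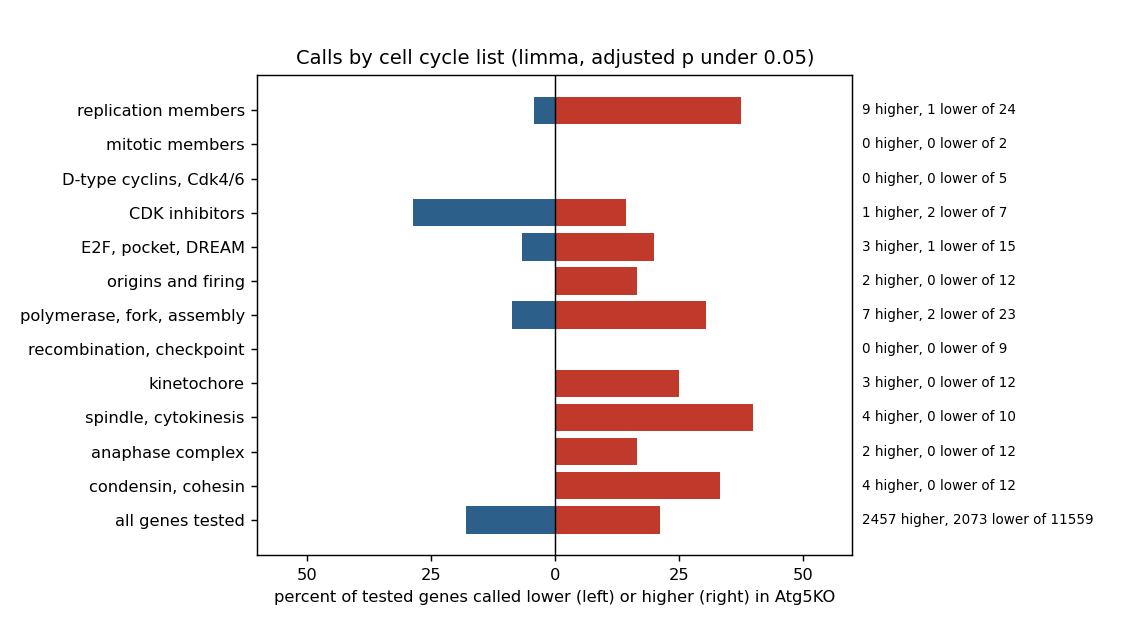
Percent of the tested genes of each cell cycle list called higher (to the right) or lower (to the left) in Atg5KO, with the counts beside each bar and all 11559 tested genes in the bottom row. The replication members stand at 9 higher and 1 lower of 24, and the spindle motor and cytokinesis list at 4 higher and 0 lower of 10, beside 2457 higher and 2073 lower of all genes. These counts include Mcm5 and Nek2, which passed the filter through the Atg5KO libraries alone.

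Among the genes that gate entry into S phase, calls went both ways. They are to be read beside the 21.3% of all tested genes called higher and 17.9% called lower on FPKM. None of the 5 D-type cyclins and their kinases was called by limma on FPKM or on reads, and none had an unadjusted p under 0.05. Ccnd1, cyclin D1, had 149, 135 and 134 FPKM in Atg5KO against 140, 145 and 143 FPKM in Atg5F/F libraries. Cdkn1a, the inhibitor p21, lay far above every member in level, at 868, 843 and 836 FPKM in Atg5KO and 949, 933 and 918 FPKM in Atg5F/F libraries. Its groups were apart, and it missed the threshold on FPKM (log2 fold change -0.14 with SE 0.05, adjusted p = 0.0646 in limma) and passed it on reads (limma-voom adjusted p = 0.00173).

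Of the 7 CDK inhibitors, all tested, limma on FPKM called 1 higher and 2 lower. Cdkn1b, which encodes p27, was higher in Atg5KO, at 27.6, 25.4 and 26.3 FPKM against 22.4, 21.3 and 21.3 FPKM in Atg5F/F (log2 fold change 0.27, limma adjusted p = 0.00159). Cdkn1c, which encodes p57, was lower, at 1.49, 2.04 and 1.57 FPKM in Atg5KO against 3.88, 3.68 and 4.15 FPKM in Atg5F/F (log2 fold change -0.87, limma adjusted p = 0.000170), and Cdkn2c was lower by 0.26 on the log2 scale with overlapping groups. Of the E2F, pocket protein and DREAM genes outside the members, limma on FPKM called 3 of 15 tested higher (Tfdp2, Rb1 and Rbl2) and 1 lower (E2f4). On reads, 7 of 17 were higher and 1 lower, where 20.7% and 16.1% of all genes were. Tfdp2 had the largest change of the list on FPKM (log2 fold change 0.37, limma adjusted p = 0.00308). Rb1, the retinoblastoma gene that holds E2F factors in check, was higher, at 17.7, 17.1 and 17.9 FPKM in Atg5KO against 15.1, 12.95 and 14.0 FPKM in Atg5F/F. E2f4, an E2F of the repressive DREAM complex, was lower, at 32.3, 32.6 and 31.0 FPKM in Atg5KO against 39.3, 40.8 and 41.0 FPKM in Atg5F/F (log2 fold changes 0.31 and -0.33, limma adjusted p = 0.00287 and 0.000277). Foxm1, a driver of G2 and M genes, was not called on FPKM (log2 fold change 0.18, limma adjusted p = 0.108) and was called on reads (limma-voom adjusted p = 0.0485), while Mybl2 lay under the filter with overlapping groups.

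Several of the cell type marker sums also differed between groups. Of 12 proximal tubule markers, 6 reached 1 FPKM in at least 3 libraries (Lrp2, Aqp1, Ggt1, Hnf4a, Pdzk1 and Kap), and the 12 summed to 137 to 151 FPKM in Atg5KO and 241 to 264 FPKM in Atg5F/F libraries. Of the 6, limma called 5 lower and 1 higher, where 17.9% and 21.3% of all tested genes were. Ggt1 alone had a mean of 90.5 FPKM over the 6 libraries (log2 fold change -1.20), so the sum follows it in large part. Fibroblast and pericyte markers summed to 0.606 to 0.939 FPKM in Atg5KO and 1.68 to 2.74 FPKM in Atg5F/F (1 of 8 reached the filter, none was at 0 in all libraries). The 1 was Cspg4, with a mean of 1.18 FPKM over the 6 libraries, so this sum mainly follows a single gene near the filter and does not describe fibroblast genes at large. Endothelial markers summed to 7.40 to 9.02 FPKM in Atg5KO and 10.3 to 11.9 FPKM in Atg5F/F (2 of 6 reached the filter). Of these 2, 1 was called lower, and the sum mainly follows Kdr, with a mean of 7.3 FPKM over the 6 libraries. Leukocyte markers overlapped, at 10.3 to 12.6 FPKM in Atg5KO and 10.96 to 13.3 FPKM in Atg5F/F (2 of 8, with Adgre1, C1qa and Cd3e at 0), as did podocyte markers, at 27.6 to 31.1 FPKM in Atg5KO and 27.2 to 31.3 FPKM in Atg5F/F (3 of 5). Of the 3 podocyte markers tested, limma called 1 higher and 1 lower, and the sum mainly follows Synpo, with a mean of 24.0 FPKM. Collecting duct markers summed to 1.19 to 1.53 FPKM in Atg5KO and 0.693 to 0.739 FPKM in Atg5F/F (0 of 9, with Aqp2, Atp6v1g3 and Foxi1 at 0). Distal convoluted tubule markers summed to 1.47 to 1.84 FPKM in Atg5KO and 2.59 to 2.94 FPKM in Atg5F/F (1 of 3, with Pvalb at 0), and thick ascending limb markers overlapped, at 0.584 to 0.834 FPKM in Atg5KO and 0.593 to 0.791 FPKM in Atg5F/F (0 of 4). The part of these cell type differences in the replication and mitosis values was not tested.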

How the data were processed

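Libraries came from a stranded mRNA kit, per the labels' protocols. The submitters' processing notes name HISAT2 2.1.0 and featureCounts 1.4.6, with Trimmomatic 0.35, bcl2fastq and edgeR, on GRCm38/mm10. Neither annotation nor strand setting is given in the sources used. The gene length implied by the FPKM was the GENCODE vM21 exon length for only 6.52% of the recovered genes, so exon overlaps in vM21 are a guide only. The authors deposited FPKM for each gene and library, with a log2 fold change, a p-value, an FDR and a ranking score; the p-value and score columns were not used.

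Whole reads were recovered from the FPKM steps for 100% of 18296 genes above 0 (largest distance from a whole read 8.78e-05), and the recovered genes held 99.6% of the implied totals. Limma 3.58.1 in R 4.3.3 (eBayes with a trend, Benjamini-Hochberg) was run on log2(FPKM + 1) over the 11559 genes that reached 1 FPKM in 3 or more of 6 libraries, and limma-voom on reads of genes with at least 10 reads in all. Both were also run on simulated reads in which only genes with a mean above 1 FPKM were changed. Those runs do not bear on the members under the filter. Tables were handled with pandas 2.3.3 and numpy 2.4.6 under Python 3.11.15. Chi-square per degree of freedom between replicates was 3.03 to 6.12, so no library was a duplicate. Alternatives were other scalings, filters and pseudocounts, a length correction, a replicate block and leaving out each library.

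The members and lists were chosen with earlier results of these data known. Named genes are all 44 members, Atg5, up to 3 called genes of each other list (or the 2 with the smallest p), and Cdkn1a, Ccnd1, Foxm1 and Mybl2; not every one is described, and called genes of short lists are named beyond it.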

Additional observations from a re-analysis of the deposited data

How the results depend on the processing

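Of the 14 members called by the main test or, under its filter, on reads (Cdk2, called on reads alone, is not among them), 5 were called under every alternative run (Mcm7, Gins2, Gins4, Rrm1 and Rfc3), and 34 of 44 kept the sign of their log2 fold change under all of them. Higher replication genes numbered 9 as reported, 5 to 7 when 1 library was left out (5 without Atg5F/F replicate 3), 6 with quantile normalization or a filter of 5 FPKM, 7 with the length trend removed or no filter, 8 with median-ratio scaling, and 9 with a pseudocount of 0.1 FPKM, a replicate block or voom. The lower count of 1 became 0 without Atg5KO replicate 1 and ranged from 0 to 1. The median log2 fold change of the tested replication genes, 0.14, was 0.21 with a filter of 5 FPKM, 0.20 with a pseudocount of 0.1 FPKM, 0.22 by voom, and 0.14 to 0.17 when 1 library was left out. Higher mitotic genes numbered 0 of 2, but 2 with no filter (more genes tested) and 0 to 1 when 1 library was left out; their median of 0.13 was 0.23 by voom, and no mitotic gene could be tested at 5 FPKM. Of the 11 mitotic genes under the filter, 4 were higher on reads, 2 with quantile normalization, 5 with a replicate block and 1 to 3 when 1 library was left out. The cause of these shifts was not tested except where stated.

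Sign changes were seen in 10 members, none of them called. Single-library omissions gave Mcm2 -0.084 to 0.022, Gins3 -0.025 to 0.103, Rrm2 -0.109 to 0.046, Pola1 -0.118 to 0.019, E2f2 -0.0998 to 0.224, E2f8 -0.105 to 0.592, Ccnb2 -0.301 to 0.205 (0.00997 without Atg5F/F replicate 1, 0.0203 without Atg5KO replicate 3), Aurkb -0.451 to 0.170 and Mki67 -0.334 to 0.242 (-0.123 without Atg5KO replicate 3). E2f2 was -0.0468 without Atg5F/F replicate 3, -0.0984 without Atg5KO replicate 1 and -0.0817 with quantile normalization. Rrm2 was 0.00567 by voom, Pcna 0.0344 with the length trend removed, and Mki67 -0.0656 with quantile normalization and -0.0566 with a replicate block. Deviations from the group mean correlated at 0.163, 0.075 and -0.023 between libraries with the same replicate number, and at -0.131 to 0.047 between those with different numbers. With 3 libraries a group, these values cannot settle whether the numbers pair the samples. Depth limits the scarcest members, such as Bub1 and E2f8, with 2 to 15 and 3 to 5 reads a library.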
